A study of Caenorhabditis elegans with 2 samples.

Results

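The genes described here form the EGF-Ras-MAPK pathway that induces the vulva of Caenorhabditis elegans, the egg-laying opening of the hermaphrodite. The 10 members were chosen by gene name, not by a rule on their values, although earlier results of these data were known. From the ligand gene to the transcription factor genes, they are lin-3, let-23, sem-5, let-60, lin-45, mek-2, mpk-1, ksr-1, lin-1 and lin-31. Each matched 1 row of the deposited table, so 10 of its 13601 genes are members. Their poly(A) tails were measured by mTAIL-seq, which ligates an adapter to the 3′ end of polyadenylated RNA and reads the length of the tail from sequencing signals. The RNA came from whole wild-type animals of the N2 Bristol strain at mid-L4, the last larval stage, reared on OP50 bacteria at 25 °C and taken at 29 h. The 2 biological replicates form a single untreated group, and the deposited table merges them.

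In this pathway the gonadal anchor cell secretes LIN-3, an EGF-like growth factor, which activates the receptor tyrosine kinase LET-23 on the vulval precursor cells. The signal passes through the adaptor SEM-5 to the small GTPase LET-60 Ras, and from there through the kinases LIN-45 Raf, MEK-2 and MPK-1 ERK, with KSR-1 as a scaffold. In the nucleus MPK-1 phosphorylates LIN-1, an ETS-family factor, and LIN-31, a forkhead factor. Some of these proteins also act in other cells, for example in the germline, the excretory duct and the sex myoblasts. A poly(A) tail is added to an mRNA in the nucleus, is bound by poly(A)-binding protein in the cytoplasm and is shortened by deadenylases.

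A tag is 1 called tail, and the table held 17376490 tags. The members together held 4654 tags, or 0.0268% of them, from 72 in sem-5 to 1754 in let-60. Because the replicates are merged, no value below has a replicate error and no p-value was computed. The SD given with a mean is the spread of tails within a gene, n is its number of tags, and the 95% interval of a median is an order-statistic interval over the tags, which covers counting error only. Gene medians were read against 8803 genes with at least 100 tags, whose median tail, taken over genes, was 80 nt, with the middle 50% of genes between 69 and 91 nt. A gene was called above or below when its whole interval lay on that side of 80 nt. Among these 8803 genes 35.0% were above and 36.7% were below. The table sums all tissues, so fewer cells of a type and less RNA per cell cannot be told apart, and no value belongs to vulval cells in particular.

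Median tails of the members spread from 68.5 nt in the adaptor gene sem-5 to 122.5 nt in the receptor gene let-23. Of the 8 members with at least 100 tags, 5 were above (let-23, ksr-1, lin-1, mek-2 and mpk-1), 0 were below and 3 had intervals that included 80 nt (let-60, lin-45 and lin-31), beside the 35.0% of all genes that were above. The other two, lin-3 and sem-5, had 77 and 72 tags and also had intervals that included 80 nt. Receptor, scaffold and LIN-1 genes were also long, meaning at least 20 nt over the median over genes, a call made for 12.6% of all genes. The short call, made for 11.8% of all genes, was made for 0 members. The median of the 10 member medians was 88.25 nt.

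**Figure D1:**
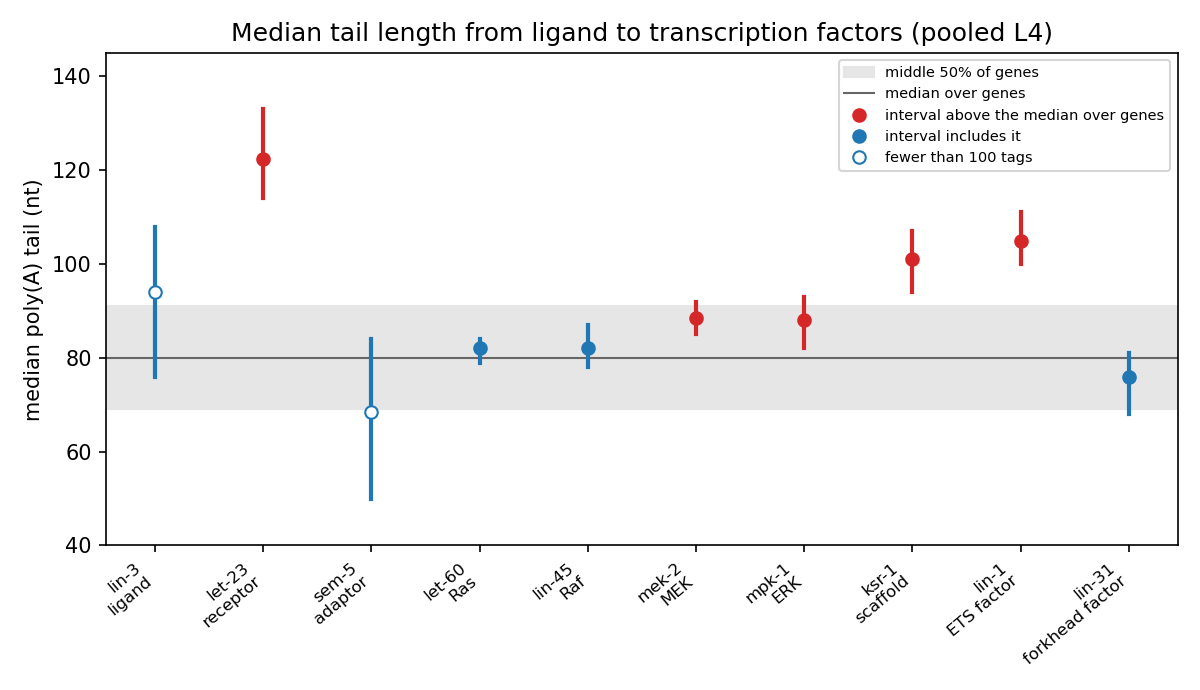
Median poly(A) tail length in nt (vertical axis) of each pathway gene, ordered from ligand to transcription factors; bars are 95% intervals over tags, the line is the median over genes (80 nt) and the band the middle 50% of genes. The receptor gene let-23 stands highest at 122.5 nt, and open circles mark lin-3 and sem-5, with 77 and 72 tags.

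The ligand gene lin-3 (F36H1.4) had a median tail of 94 nt, with an interval of 76 to 108 nt. Its mean was 90.9 nt ± 47.8 (SD, n = 77 tags), and its middle 50% of tails reached from 46 to 127 nt. Of its tails 16 were 30 to 59 nt long, 10 were 60 to 89 nt, 19 were from 90 nt to just under 120 nt and 17 were 120 to 149 nt. These counts are too small to say whether the lower number between 60 and 89 nt is more than counting error. Tails under 30 nt made up 11.7% of the gene (95% Wilson interval 6.27 to 20.7%), against a median of 6.34% over all analysed genes, which lies inside that interval.

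The receptor gene let-23 (ZK1067.1) had the longest tails of the pathway. Its median was 122.5 nt (interval 114 to 133 nt), and 99% of the analysed genes had a shorter one. Its mean was 123 nt ± 59.6 (SD, n = 274 tags). Tails over 100 nt made up 65.3% (59.5 to 70.7%), against a median of 31.8% over genes. The assay calls no tail longer than 231 nt, and 14 of the 274 tails, 5.11% (3.07 to 8.39%), were listed at that length, so their true lengths may be greater. The median over genes of that share was 0.408%, and 97.9% of genes had a smaller share than let-23. Short tails were present too, with 20 of 274 under 30 nt (7.30%, 4.77 to 11.0%). Its SD was larger than that of 98.8% of genes, so the receptor transcripts were both longer-tailed and more varied in tail length than those of most genes.

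The adaptor gene sem-5 (C14F5.5), which encodes a Grb2-like protein with SH2 and SH3 domains, had the lowest median of the members, 68.5 nt, with a wide interval of 50 to 84 nt. Its mean was 70.6 nt ± 36.0 (SD, n = 72 tags), and its longest tail was 173 nt. Tails over 100 nt made up 27.8% (18.8 to 39.0%). No tail was listed at 231 nt, which at 72 tags allows a share of up to 4.17%. The depth of sem-5 therefore leaves its place relative to 80 nt undecided. Its interval did not overlap those of let-23, mek-2, ksr-1 or lin-1.

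The Ras gene let-60 (ZK792.6) was the best covered member, and its median tail lay close to the 80 nt median over genes. The median over all tags was lower, at 58 nt. The let-60 median was 82 nt (79 to 84 nt) and the mean 86.0 nt ± 43.8 (SD, n = 1754 tags). Tails under 30 nt made up 7.01% (5.91 to 8.30%) and tails over 100 nt 34.1% (31.9 to 36.3%), beside medians over genes of 6.34% and 31.8%. The Raf gene lin-45 (Y73B6A.5) had the same median, 82 nt (78 to 87 nt), and a mean of 87.2 nt ± 44.2 (SD, n = 527 tags). The cumulative distributions of let-60 and lin-45 differed by at most 0.036 on a scale from 0 to 1, the smallest gap among the 45 pairs of members. The next smallest, 0.056, was between ksr-1 and lin-1.

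The genes of the downstream kinases came next. The MEK gene mek-2 (Y54E10BL.6) had a median of 88.5 nt (85 to 92 nt) and the ERK gene mpk-1 (F43C1.2) one of 88 nt (82 to 93 nt), and both were above. The intervals of let-60 and mek-2 did not overlap, at a difference of 6.5 nt, whereas those of lin-45 and mek-2 overlapped. The mpk-1 interval overlapped those of both let-60 and lin-45.

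The mek-2 tails were narrowly distributed. Their mean was 89.3 nt ± 32.0 (SD, n = 650 tags), and 12.6% of genes had a smaller SD. Only 10 of 650 tails, 1.54% (0.838 to 2.81%), were shorter than 30 nt, and 2.91% of genes had a smaller share of such tails. In mpk-1 that share was 6.39% (4.56 to 8.88%), an interval that did not overlap that of mek-2, although the medians of the pair differed by 0.5 nt. No mek-2 tail was listed at 231 nt, which allows a share of up to 0.462%, while mpk-1 had 4 in 501. The mpk-1 mean was 89.8 nt ± 41.2 (SD, n = 501 tags).

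**Figure D2:**
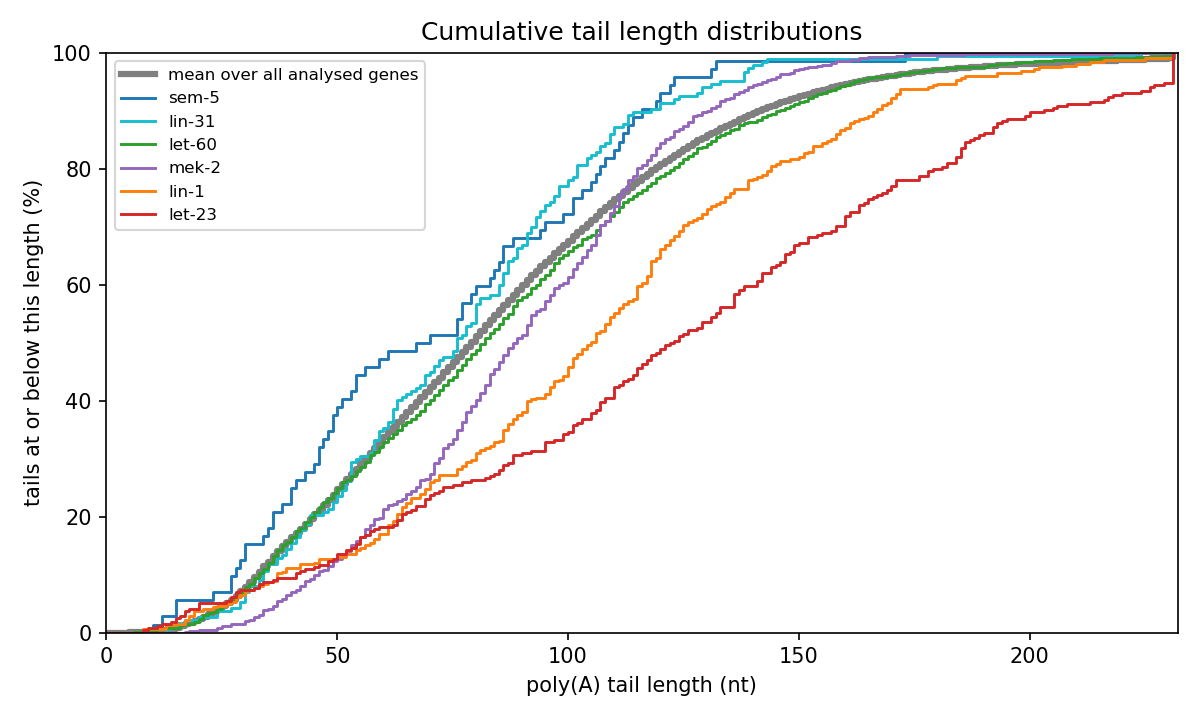
Cumulative share of tails in percent (vertical axis) at or below each tail length in nt (horizontal axis) for 6 of the pathway genes and the mean over all analysed genes. The let-60 curve stays close to the grey mean curve, mek-2 rises late and then steeply, and let-23 lies far to the right with a step of 5.11% of tails at 231 nt.

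The scaffold gene ksr-1 (F13B9.5) had a median 21 nt over the median over genes, with an interval of 94 to 107 nt, and a mean of 103 nt ± 49.0 (SD, n = 289 tags). Tails over 100 nt made up 50.2% (44.4 to 55.9%), and 9 of 289 tails, 3.11% (1.65 to 5.81%), were listed at 231 nt, a share larger than in 94.1% of genes. Its relative ksr-2 (F58D5.4), which encodes a KSR protein known for its role in the germline, had 50 tags and a median of 102 nt (84 to 113 nt). The intervals of the 2 scaffold genes overlapped.

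The transcription factor genes at the end of the pathway differed from each other. The ETS factor gene lin-1 (C37F5.1), whose product restrains vulval fates until it is phosphorylated, had a median of 105 nt (100 to 111 nt), longer than in 92.5% of genes. Its mean was 105 nt ± 47.2 (SD, n = 323 tags), and 54.2% (48.7 to 59.5%) of its tails exceeded 100 nt. The forkhead gene lin-31 (K10G6.1), whose product partners with LIN-1, had a median of 76 nt (68 to 81 nt) and a mean of 76.1 nt ± 33.4 (SD, n = 187 tags). Its share over 100 nt was 21.9% (16.6 to 28.4%), an interval apart from that of lin-1 and below the median over genes of 31.8%. The medians of lin-1 and lin-31 lay 29 nt apart and their intervals did not overlap.

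**Figure D3:**
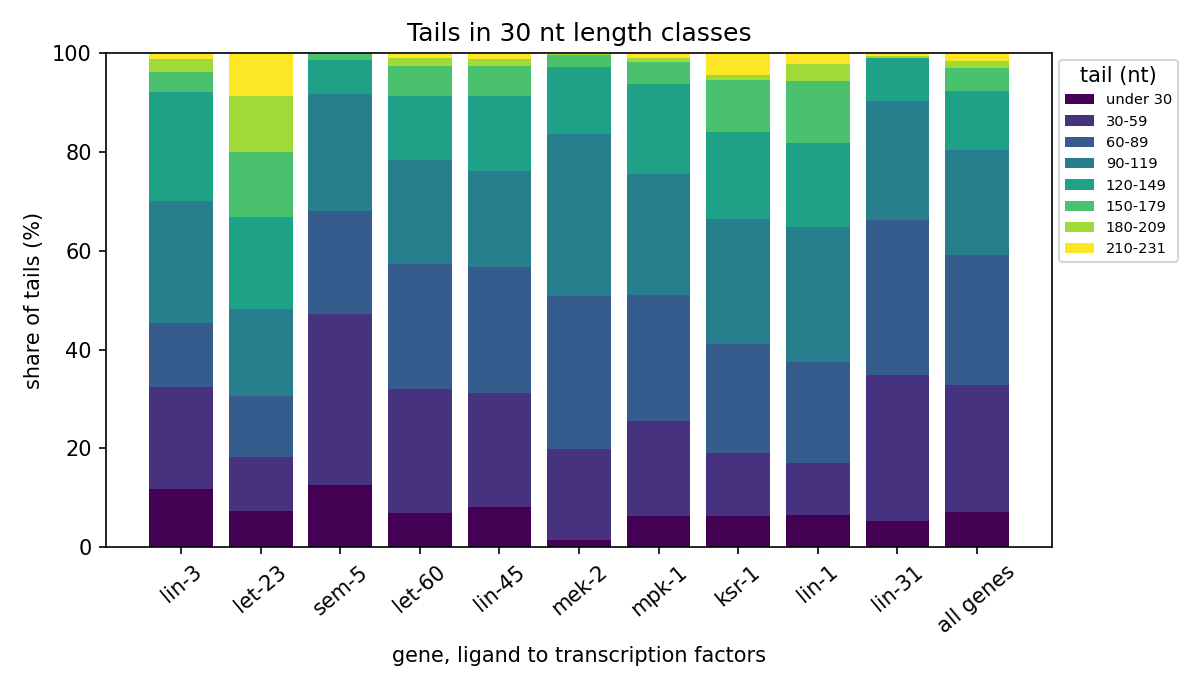
Share of tails in percent (vertical axis) in 30 nt length classes for each pathway gene, with the mean over all analysed genes at the right. The class under 30 nt is thinnest in mek-2, at 1.54%, and the classes from 150 nt up are widest in let-23.

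In the order of median tails, from sem-5 through lin-31, let-60, lin-45, mpk-1, mek-2, lin-3, ksr-1 and lin-1 to let-23, 8 of the 9 neighbouring pairs had overlapping intervals. The exception was the step from lin-1 to let-23, of 17.5 nt. Sorting puts the closest medians side by side, so overlap between neighbours says little about the members. Over all 45 pairs of members, 25 had intervals that did not overlap, among them all 9 pairs that include let-23. The share of such pairs over all analysed genes was not computed, so these counts are not read as a trait of the pathway. Position in the pathway and tail length did not run in parallel, since the receptor and lin-1, near its start and its end, had the longest medians, and sem-5 and lin-31 the shortest.

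Over the whole table, tails were shorter where a gene had more tags. Each member with at least 100 tags was therefore also set beside genes of like tag number. This left out lin-3 and sem-5, with 77 and 72 tags. With the 8803 genes cut into 10 equal groups by tags, gene medians had a median of 86 nt in the group with the fewest tags and 67 nt in that with the most. The receptor gene let-23 lay 38.5 nt over the median of its group, lin-1 23 nt and ksr-1 17 nt. The kinase gene mek-2 lay 8.5 nt over its group, with its interval wholly over the 80 nt of that group. The mpk-1 median lay 6 nt over the 82 nt of its group, but its interval, 82 to 93 nt, reached that value, and lin-45 lay at 82 nt in the same group. The Ras gene let-60, with more tags than 85.8% of genes, lay 7 nt over the 75 nt of its group, and its interval of 79 to 84 nt was wholly over that value. The forkhead gene lin-31 lay 8 nt under the 84 nt of its group, with an interval, 68 to 81 nt, wholly under it. Tags and tails of a gene come from the same reads, so tag number is not an independent measure of abundance.

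**Figure D4:**
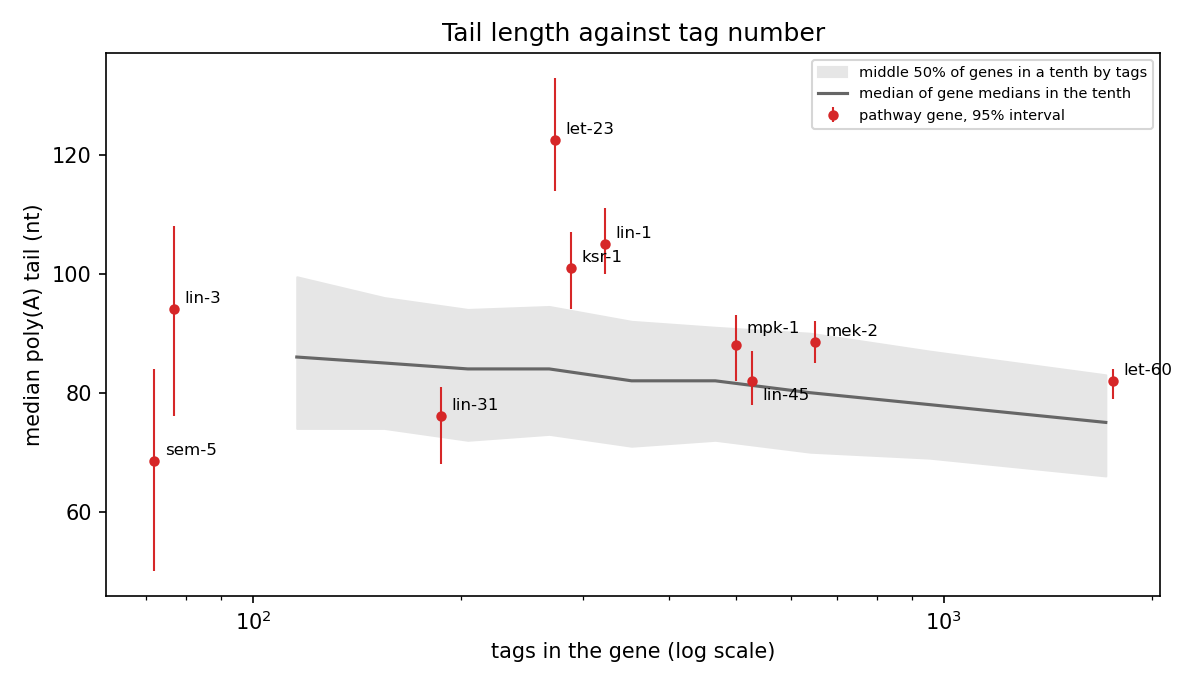
Median tail in nt (vertical axis) against the number of tags (horizontal axis, log scale) for the pathway genes, with 95% intervals; the line and band give the median and the middle 50% of gene medians in groups of genes by tags (the group with the most tags is not drawn). The genes let-23, lin-1 and ksr-1 lie over the band, and let-60 lies over the line at 82 nt.

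Tail length distributions most like those of 3 members were looked for among 4454 genes with at least 400 tags, by the largest gap between cumulative distributions in this 1 pool. For let-60, the member with the most tags, the closest genes were mthf-1 (gap 0.0190, median 82 nt), kin-18 (0.0216, 83 nt) and snap-1 (0.0217, 82 nt). For let-23, the longest, they were memo-1 (0.0608, 127 nt), unc-14 (0.0626, 118 nt) and jph-1 (0.0641, 121.5 nt). For sem-5, the shortest, they were clc-19 (0.0560, 68 nt), ttr-48 (0.0571, 65 nt) and hex-2 (0.0584, 64 nt). Gaps widen with fewer tags, so those of sem-5 and let-23 cannot be ranked against those of let-60.

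Other genes of the pathway were described from lists of regulators, and each count is read against the 35.0% above and 36.7% below over all genes. Of the 9 negative regulator genes analysed, 7 were above and 1 was below, with a list median of 99 nt. The receptor-type phosphatase gene dep-1, known to act on LET-23, was the longest at 110 nt (105 to 116 nt). The Cbl-like ubiquitin ligase gene sli-1 had a median of 107 nt, with its interval wholly above, and the Ack-like kinase gene ark-1 one of 99 nt (90 to 108 nt). The Ras GTPase-activating protein gene gap-2 had a median of 91 nt (81 to 114 nt). The shortest and best covered gene of this list was lst-3, at 67 nt (65 to 70 nt, 1420 tags). The ERK phosphatase gene lip-1 had 32 tags and was left out of the count, and gap-1 and gap-3 were not analysed here.

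Genes that act with or downstream of LIN-1 were described next. Of 9 nuclear effector genes 5 were above and 1 was below, and the list median was 104 nt, close to the 105 nt of lin-1 and over the 76 nt of lin-31. The Hox gene lin-39, a vulval competence factor, had a median of 106.5 nt (100 to 112 nt, 336 tags), and dpy-22, which encodes a Mediator subunit, one of 106 nt (96 to 112 nt). The GATA factor genes elt-6 and egl-18 marked the ends of the list, at 107 nt (94 to 118 nt) and 65 nt (56 to 76 nt). The best covered gene, ceh-20, had a median of 81.5 nt (77 to 87 nt, 352 tags). The Mediator gene sur-2 had 91 tags and was not counted, at 105 nt (93 to 115 nt).

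Positive regulators and scaffolds were split, with 4 of 13 above, 4 below and 5 with intervals including 80 nt, and a list median of 83 nt. The longest was cnk-1, a Raf-binding scaffold gene, at 127 nt (106 to 138 nt, 114 tags). The leucine-rich repeat scaffold gene soc-2, known to promote Ras-Raf signalling, had a median of 98 nt (95 to 103 nt), and lin-10, needed to place LET-23 at the basolateral membrane, one of 112 nt (103 to 121 nt). The phosphatase 2A subunit genes sur-6, let-92 and paa-1 had medians of 73, 83 and 71 nt. The 14-3-3 gene par-5 was the shortest and had the most tags, at 45 nt (45 to 46 nt, 31600 tags). It has a close relative in ftt-2 (73 nt), so the division of tags between them is uncertain. The exchange factor gene sos-1, which links SEM-5 to LET-60, had 22 tags and a median of 93.5 nt (49 to 128 nt), and lin-7 was not analysed here.

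The synMuv genes, which keep lin-3 from being expressed outside its proper cells, had 5 of 18 genes above and 6 below, with a list median of 82.5 nt. They ranged from lin-52 at 50 nt (42 to 59 nt) to lin-56 at 104.5 nt (97 to 112 nt), and the best covered, lin-53, had a median of 71 nt (69 to 74 nt, 1508 tags). In the FGF branch, which uses SEM-5 and LET-60 after a different receptor, all 3 genes analysed were above, and egl-17 was not analysed here. Its receptor gene egl-15 had a median of 121.5 nt (112 to 137 nt), 1 nt from that of let-23 and with an overlapping interval. The FGF gene let-756 had a median of 116 nt (108 to 124 nt), and clr-1, a receptor phosphatase gene that opposes EGL-15, one of 100 nt (93 to 107 nt, 301 tags).

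Other small GTPase genes of the Ras superfamily had medians on both sides of that of let-60. Of 8 analysed, which do not include rac-2, 3 were above and 1 was below, and the list median was 85 nt. The R-Ras-like gene ras-1 had a median of 85 nt (76 to 89 nt) and ras-2, at a tag number close to that of let-60, one of 80 nt (78 to 82 nt, 1710 tags). That interval overlapped the 79 to 84 nt of let-60, as did those of ras-1, rap-1 and cdc-42. The intervals of rho-1, ced-10 (86 to 93 nt), rap-2 (88 to 97 nt) and ral-1 did not overlap that of let-60. The shortest and longest of this list were rho-1 at 74 nt (71 to 77 nt) and ral-1 at 93 nt (87 to 99 nt).

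**Figure D5:**
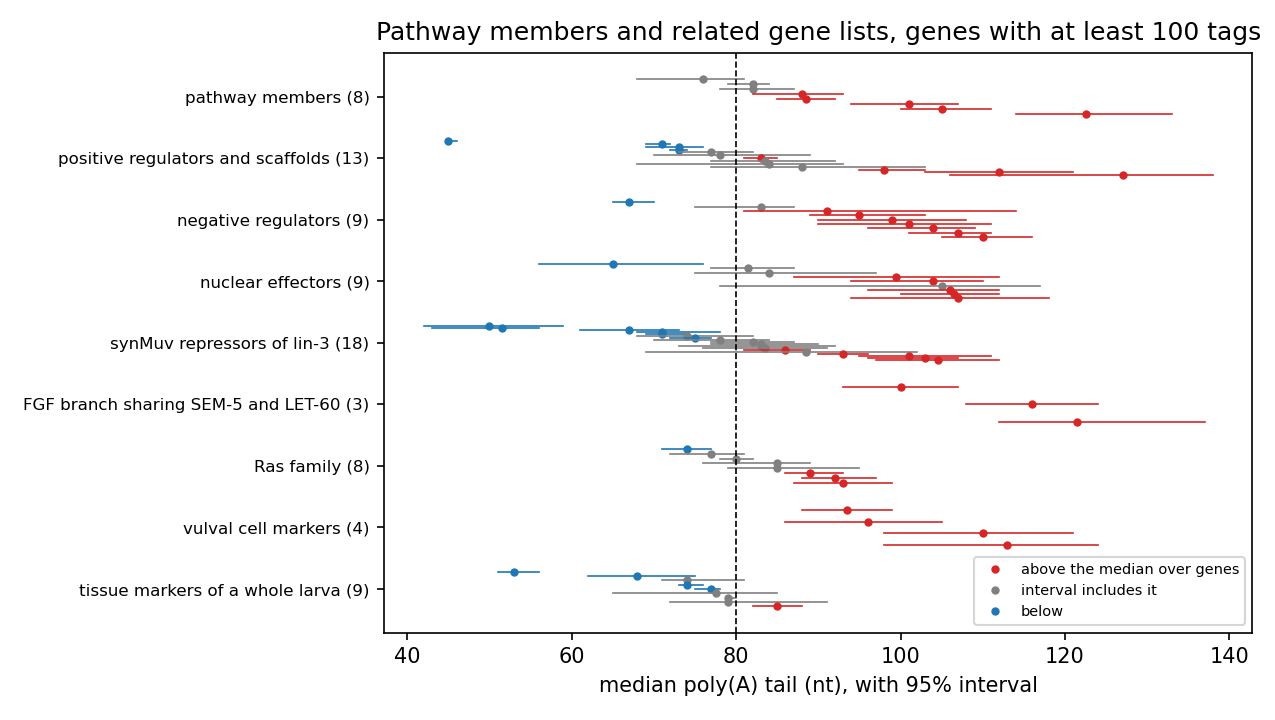
Median tail in nt (horizontal axis) with 95% interval for each gene with at least 100 tags, by list (vertical axis, number of genes in brackets), coloured by whether the interval is above, below or includes the median over genes (dashed line, 80 nt). All 3 genes of the FGF branch and 7 of 9 negative regulators lie above, while positive regulators and synMuv genes fall on both sides.

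Markers of the larval tissues were present. Of 10 marker genes of muscle, intestine, neurons, germline and hypodermis 9 had tags, from 134 in the neuronal gene rab-3 to 38818 in the muscle myosin gene unc-54, and col-19 was not analysed here. Their median tails ran from 53 nt in the intestinal esterase gene ges-1 (51 to 56 nt) to 85 nt in the hypodermal collagen gene dpy-7 (82 to 88 nt). Of the 9, 1 was above and 4 were below, beside 35.0% and 36.7% of all genes. Of 10 genes known to mark vulval cells 8 had tags, between 30 and 332, and egl-17 and egl-38 were not analysed here. The 4 with at least 100 tags were all above, from vab-23 at 93.5 nt (88 to 99 nt, 332 tags) to cdh-3 at 113 nt (98 to 124 nt). Among those with fewer tags, dhs-31 (80 to 100 nt) and ceh-2 (64 to 102 nt) had intervals that included 80 nt. The intervals of cog-1 (84 to 108 nt) and zmp-1 (97 to 148 nt) lay over it. These genes are also expressed outside the vulva, and what part of the tags of let-23 or lin-1 came from vulval cells was not tested. Median tag numbers of the genes counted were 156 in nuclear effectors and vulval markers, 262 in negative regulators and 286 in the FGF branch. They were 409 in synMuv genes, 561.5 in the Ras family, 641 in positive regulators and 752 in tissue markers, beside 405 over all analysed genes. Lists were not set beside genes of like tag number.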

How the data were processed

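Wild-type L4 animals were profiled by mTAIL-seq in 2 biological replicates of 1 group. Per the labels' protocols, RNA ligated with the help of a splint oligonucleotide was cut in part with RNase T1, captured on streptavidin and size-selected to 250 to 1000 nt. It was then read on a MiSeq for 51 and 251 cycles, and tailseeker2 called the tails. The submitters' processing notes also name STAR and bedtools, with roles, versions, genome build and annotation not given in the sources used here, so no coordinates are printed. Whether PCR copies were collapsed is not given either.

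The authors deposited 1 table, with a count of tags and the list of tail lengths in nt per gene, pooled over the replicates. The counts are not normalized, and every gene has at least 10 tags. The number of tags, the median and the population SD recomputed from the lists differed from the deposited values in 0 genes.

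Medians with order-statistic intervals were computed for every gene with Python 3.11.15, numpy 2.4.6 and scipy 1.17.1. Shares have Wilson intervals, and a share of 0 is given the limit of 3 counts. Intervals and limits cover counting error only. Genes with at least 100 tags formed the background. All members are named, with, in each list, the gene with the most tags and the shortest and longest medians. Further list genes (ksr-2, sli-1, ark-1, gap-2, lip-1, dpy-22, lin-39, sur-2, soc-2, lin-10, sur-6, let-92, paa-1, ftt-2, sos-1, let-756, ras-1, rap-1, rap-2, ced-10, cdc-42, cog-1, dhs-31, ceh-2, zmp-1 and rab-3) were named for their roles, tag numbers or intervals after their values were seen. Members, lists and thresholds were chosen with earlier results of these data known. The table's own aliases named the members. The list of nuclear effectors names sur-2 also by a synonym, which was not counted.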

Additional observations from a re-analysis of the deposited data

How the results depend on the processing

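Each member's difference from the median over genes was recomputed under 9 alternatives, giving 90 values. Of these, 72 kept their direction and call, 3 kept their call at a difference of 0 nt, 12 gained a call, 1 lost it and 2 changed direction. The counts of members that follow cover those with enough tags, so lin-3 and sem-5 enter only with a minimum of 20 tags or all listed genes. Members above numbered 5 with a minimum of 20 tags, mean tails, means of log2(tail + 1), tails of at least 20 nt, no tails at the longest callable length or a 99% interval, and 4 with all listed genes, whose median is 82 nt and where mpk-1 lost its call. Over all genes with enough tags, the share above in these settings ran from 26.6% with all listed genes to 37.7% with mean tails. The share below ran from 31.6% to 39.8% in the same 2 settings. With a minimum of 400 tags 4 members remained, and all 4 were above a lower centre of 76 nt, let-60 and lin-45 newly so. There 40.7% of all genes were above and 39.0% below. Members below numbered 1, lin-31, not 0, with a minimum of 20 tags, all listed genes, mean tails and means of log2(tail + 1). With both kinds of mean the uncounted sem-5 was also below. With tails of at least 20 nt the uncounted lin-3 was above, 16 nt over the centre. Centred on 58 nt, the median over tags, 8 counted members and lin-3 were above, as were 85.0% of all genes. There lin-31 and sem-5 changed direction, to 18 and 10.5 nt over the centre, sem-5 without a call. All lists but those of markers, with the FGF branch and the Ras family included, together had 27 genes above and 13 below. They held 13 positive and 9 negative regulator, 9 nuclear effector, 18 synMuv, 3 FGF branch and 8 Ras family genes. Over all genes 35.0% were above and 36.7% below. With a minimum of 400 tags, which changes both the genes and the centre, the lists had 8 and 6, beside 40.7% and 39.0%. Centred on the median over tags they had 56 and 2, beside 85.0% and 5.69%. Leaving out a replicate was not run because the table pools them. No paired analysis was possible because the columns carry no replicate number. Among members, depth limits lin-3 and sem-5 most, with intervals over 30 nt wide.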

Other observations

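Tail length varied along the deposited lists of tails. With each list cut into 10 consecutive parts, the median over 4901 genes with 300 to 5000 tags was 81, 73, 72, 80 and 85 nt in the parts up to the fifth. In the later parts it was 77, 72.5, 72, 76 and 84 nt. Pathway genes varied along their lists as well. In mpk-1 the fifth part had a median of 116 nt (95% interval 109 to 126 nt, 50 tags) and the eighth 59 nt (42 to 75 nt, 50 tags). In let-60 the same parts had medians of 98 nt (91 to 108 nt) and 65 nt (57 to 77 nt). In let-23 the seventh part had a median of 55 nt (29 to 103 nt, 27 tags) and the last 188 nt (148 to 206 nt, 27 tags). In lin-1 the parts lay between 93 and 115.5 nt and all their intervals overlapped. These parts were picked after their values were seen. No label or header says what orders the lists, so no replicate, transcript end or batch was read from it, and its bearing on the intervals was not tested.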
